A study of Mus musculus with 6 samples.

Results

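Retinal RNA of wild-type (WT) mice and of mice without the serotonin transporter (Slc6a4-/-) was sequenced 24 hours after optic nerve crush (ONC), and the 7 clustered genes for linker histone H1 and for the core histones H2A and H2B were followed here. They are H1f2 and H1f4 for H1, H2ac19, H2ac18 and H2ac7 for H2A, and Hist1h2bq and Hist1h2br for H2B. They were taken by name from a table of 701 genes that the authors had selected for a difference between these same samples, and they are 7 of the 27 clustered histone genes in it. The other 20 code for H2A (3 genes), H3 (6) and H4 (11). Because the contrast between the genotypes chose the genes, their levels are given as a description, with no test. In Slc6a4-/- retina 6 of the 7 had a lower mean than in WT, as did 43.4% of the whole table, and Hist1h2br had a higher one.

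The study asked how loss of the serotonin transporter changes gene expression in the injured retina. Each genotype had 3 samples, and each sample pooled the ventrotemporal (VT) retinae of 3 mice. All mice were at postnatal day 56, carried the strain label C57BL/6, and had the optic nerve of the left eye crushed, so that injury was common to both groups and no uninjured sample was compared. Male and female mice were used, and the WT (C57BL/6J) and the Slc6a4-/- mice, which lack the transporter in every cell, came from separately purchased lines that the sources do not describe as littermates. The spread between pools therefore stands for pools of animals, and line and genotype cannot be told apart.

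Histones package DNA. A pair of H2A-H2B dimers joins a tetramer of H3 and H4 to form the core of the nucleosome, and linker H1 binds where DNA enters and leaves that core. Most genes for these proteins lie in clusters, have no introns, and are transcribed mainly during DNA replication. Their mRNA usually ends in a stem-loop bound by the stem-loop binding protein in place of a poly(A) tail, so it is captured by a total RNA library with reduced ribosomal RNA, the type used here. Nearly all neurons of the adult retina have left the cell cycle.

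The transcripts of the 5 H1 and H2A genes share 1 exact stem-loop, and the H2B transcripts do not hold it. The 16 bases are in capitals with 5 bases on either side, as read from GENCODE M21 transcripts on the GRCm38 build. They set the annotated transcripts of the H2B pair apart from those of the other 5 genes. Only annotated transcripts were searched, so a stem-loop in the genome past their ends would not be seen.
H1f2: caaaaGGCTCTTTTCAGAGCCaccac
H1f4: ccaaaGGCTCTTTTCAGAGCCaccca
H2ac19: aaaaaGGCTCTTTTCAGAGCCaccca
H2ac18: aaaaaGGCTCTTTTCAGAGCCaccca
H2ac7: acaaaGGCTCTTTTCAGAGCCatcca

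In the H2A genes the stem-loop lies close to the transcript's end, with 35 bases after it in H2ac19 and H2ac18 and 42 in H2ac7. The annotated transcripts of H1f2 and H1f4 run on for 840 and 1153 bases after theirs. None of the 3 annotated transcripts of Hist1h2bq, of 381, 1254 and 2015 bases, and none of the 3 of Hist1h2br, of 381, 1256 and 2197 bases, held these 16 letters. Across the annotation 29 of 55450 genes (0.0523%) held them, and 26 of the 29 were named as histone genes. Among the 27 histone genes of the table, the number that held this exact sequence was 11, and 22 held some stem of this form with a loop that starts with TTT, against 79 genes (0.142%) in the annotation.

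The promoters of the H2B pair were the same sequence. RefSeq gives a promoter window of 300 bases, from 250 before the transcription start to 50 from the start on, for all 7 genes, matched by symbol for 5 genes and by synonym for Hist1h2bq and Hist1h2br. The H2B windows, at chr13:21810150-21810449 on the minus strand for Hist1h2bq and chr13:21833493-21833792 on the plus strand for Hist1h2br, agreed over all 300 bases. One of them is printed here, with CCAAT boxes on either strand in capitals, beside the windows of H1f2 (chr13:23738557-23738856, plus strand) and H1f4 (chr13:23622509-23622808, minus strand), in which capitals mark the CCAAT box, the H1 box and the TATA box.
Hist1h2bq and Hist1h2br: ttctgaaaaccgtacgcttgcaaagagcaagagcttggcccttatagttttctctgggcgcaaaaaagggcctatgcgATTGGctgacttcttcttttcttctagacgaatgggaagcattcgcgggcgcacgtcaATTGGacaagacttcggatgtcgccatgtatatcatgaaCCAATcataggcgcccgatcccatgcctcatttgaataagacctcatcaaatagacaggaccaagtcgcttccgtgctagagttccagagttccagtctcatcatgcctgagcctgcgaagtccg
H1f2: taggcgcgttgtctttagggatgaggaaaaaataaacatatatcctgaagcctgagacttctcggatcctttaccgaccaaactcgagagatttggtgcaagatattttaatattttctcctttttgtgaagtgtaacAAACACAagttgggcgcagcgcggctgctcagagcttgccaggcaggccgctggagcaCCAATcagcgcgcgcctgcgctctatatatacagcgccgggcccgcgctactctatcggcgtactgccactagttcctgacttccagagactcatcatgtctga
H1f4: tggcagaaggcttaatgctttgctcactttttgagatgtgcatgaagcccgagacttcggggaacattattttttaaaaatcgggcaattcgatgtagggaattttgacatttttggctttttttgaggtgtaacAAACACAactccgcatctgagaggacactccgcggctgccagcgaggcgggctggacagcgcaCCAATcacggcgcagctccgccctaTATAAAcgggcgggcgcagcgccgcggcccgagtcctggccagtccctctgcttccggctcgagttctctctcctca

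The letters CCAAT, or ATTGG for the other strand, occurred in 7 of the 7 windows and in 37.4% of all 32851 RefSeq windows. The H1 box, an element described in H1 promoters that was searched as AAACACA and on the other strand as TGTGTTT, occurred in 2 of the 7, at position -112 from the start of H1f2 and -115 from that of H1f4, and in 7.18% of all windows. The TATA box, searched as TATAAA and on the other strand as TTTATA, occurred in H1f4, H2ac18 and H2ac7 and in 13.6% of all windows. It lay at position -27 from the start of H1f4, and past the start at 11 in H2ac18 and 30 in H2ac7. The H2ac19 window ends just before the place of the match in H2ac18, so a match there would not be seen. The octamer, searched as ATTTGCAT and on the other strand as ATGCAAAT and known from H2B promoters, occurred in 0 of the 7 windows and in 1.74% of all. None of these motifs overlapped another in the 7 windows. The H2ac19 and H2ac18 windows shared an identical run of 219 bases. A match of letters describes the sequence and shows no bound factor.

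The 7 genes lie in the large histone clusters, 5 on chromosome 13 and 2 on chromosome 3 (GRCm38). H1f2 occupies chr13:23738808-23740367 on the plus strand. H1f4 lies at chr13:23620629-23622558 on the minus strand and overlaps the H2B gene Hist1h2be on the same strand, so that reads from the overlap cannot be told apart. H2ac7 is at chr13:23574381-23574952 on the plus strand, 185 bases from Hist1h2bf on the other strand. H2ac19 (chr3:96239749-96240276, minus) and H2ac18 (chr3:96245497-96246082, plus) are 5220 bases apart and point away from each other. Hist1h2bq (chr13:21806612-21810197, minus) and Hist1h2br (chr13:21833743-21837530, plus) are 23545 bases apart, also facing outward.

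These 7 genes share much of their sequence with other genes, which bears on how reads could be assigned. The coding sequences of Hist1h2bq and Hist1h2br were identical over 402 of 402 bases, and the 1254-base transcript of the one matched the 1256-base transcript of the other in all 1254 bases. H2ac19 and H2ac18 were identical over 390 of 390 coding bases, and the whole 528-base transcript of H2ac19 is contained in that of H2ac18. By contrast, the coding sequences of H2ac19 and H2ac7 were 91.3% identical and those of H1f2 and H1f4 84.9%. Cut into windows of 75 bases, the read length, 100% of H2ac19, 96.1% of Hist1h2bq, 88.9% of H2ac18, 87.6% of Hist1h2br and 65.5% of H2ac7 also occurred in another gene. The shares were 28.4% for H1f4, mostly with Hist1h2be, and 6.66% for H1f2. How reads that match several genes were assigned is not given in the sources used here, so the level of a single copy is uncertain for the H2A genes and for both H2B genes.

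**Figure D1:**
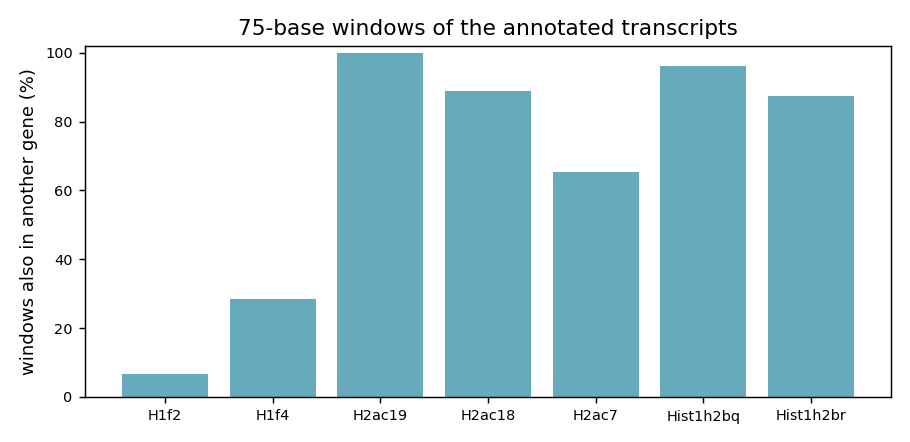
The percentage of 75-base windows of each gene's annotated transcripts that also occur in another gene (bars, vertical axis in percent) is drawn for the 7 genes. H2ac19 stands at 100% and Hist1h2bq at 96.1%, while H1f2 stands at 6.66%.

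The libraries held 76.9 to 79.0 M mapped reads in WT and 81.0 to 94.0 M in Slc6a4-/-, as recovered from the authors' mean RPKM, and counts were divided by each library's depth relative to the geometric mean of the 6 (scaled counts). Slc6a4 itself had 1516, 1397 and 1548 counts in WT and 0, 0 and 3 in Slc6a4-/-, as the labels state. The 15 retina marker genes listed to check the tissue were chosen with the gene names of the table known. Of these, 8 are in the table, 6 with a lower and 2 with a higher mean in Slc6a4-/- (median difference -0.19, lowest -1.13, log2). Their summed scaled counts were 48130 to 57658 in WT and 42361 to 58829 in Slc6a4-/-. In pooled tissue, fewer cells of a type and less RNA per cell cannot be told apart. Differences below are means of log2(scaled count + 1), Slc6a4-/- minus WT, with the standard error (SE) over 3 and 3 samples.

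H1f2 had the highest level of the 7 per length. Its WT mean was 33.3 ± 3.96 RPKM (reads per kilobase of exon and per M mapped reads, computed here, SD, n = 3), followed by H2ac18 at 26.5 ± 4.43, H2ac19 at 24.4 ± 4.06 and H1f4 at 18.5 ± 3.57. Neighbours among these 4 lay apart by less than their SDs added together. The other 3 were far lower, with H2ac7 at 1.42 ± 0.42 RPKM, Hist1h2bq at 0.907 ± 0.28 and Hist1h2br at 0.314 ± 0.22.

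The scaled counts of H1f2, a linker histone of many differentiated cells, were 3719, 4643 and 4561 in WT and 2457, 3532 and 3630 in Slc6a4-/-. After scaling, all 3 Slc6a4-/- values lay below the lowest WT value, which was that of sample 1. Before scaling the groups overlapped, with 3821 and 3548 counts in Slc6a4-/- samples 2 and 3 and 3452 in WT sample 1. The difference of H1f2 after scaling was -0.44 ± 0.21 (log2, SE), or 74.4% of WT from the means. H1f4, another linker histone gene of the same cluster, had 2298, 3260 and 3310 scaled counts in WT and 1706, 2201 and 2455 in Slc6a4-/-. The groups overlapped, since Slc6a4-/- sample 3 exceeded WT sample 1. The difference of H1f4 was -0.48 ± 0.23 (log2, SE). In both H1 genes sample 1 of each genotype was the lowest of its group, and their deviations from the genotype means went together (Pearson r = 0.93 over 6 samples, which share each library's depth).

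The 3 H2A genes had lower means in Slc6a4-/- by more than the H1 genes, and 1 Slc6a4-/- sample stood near WT. H2ac19 had 1123, 1208 and 866 scaled counts in WT and 352, 561 and 871 in Slc6a4-/-. H2ac18, its copy, had 1306, 1492 and 1064 in WT and 529, 535 and 1284 in Slc6a4-/-. Samples 1 and 2 of Slc6a4-/- were far below every WT sample in both genes, whereas sample 3 lay beside the lowest WT value for H2ac19 and well inside the WT range for H2ac18. The differences were -0.92 ± 0.40 for H2ac19 and -0.84 ± 0.45 for H2ac18 (log2, SE).

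Since the H2ac19 transcript lies within that of H2ac18, the counts were also added. The annotated gene Gm20634, which overlaps H2ac18 on the same strand, holds 454 of the 454 windows of H2ac19 and 455 of the 512 of H2ac18, so the sum still shares reads with it. The summed scaled counts were 2428, 2700 and 1930 in WT and 882, 1096 and 2155 in Slc6a4-/-. The sum was lower by 1.82-fold on the log2 mean, with a difference of -0.87 ± 0.41 (SE), and its groups overlapped through Slc6a4-/- sample 3 alone. H2ac18 took 54.7% ± 0.82 of the pair's reads in WT (SD, n = 3) and 56.2% ± 6.35 in Slc6a4-/-.

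H2ac7, an H2A gene of the chromosome 13 cluster, was much lower, with 58, 84 and 48 counts in WT and 28, 18 and 46 in Slc6a4-/-. After scaling the values were 62.5, 89.2 and 50.4 in WT against 24.7, 16.6 and 47.1, so that the groups did not overlap but Slc6a4-/- sample 3 was close to WT sample 3. The difference of H2ac7 was -1.25 ± 0.48 (log2, SE). Deviations from the genotype means went together in H2ac18 and H2ac7 (r = 0.91) and in H2ac18 and H2ac19 (r = 0.88, 6 samples).

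**Figure D2:**
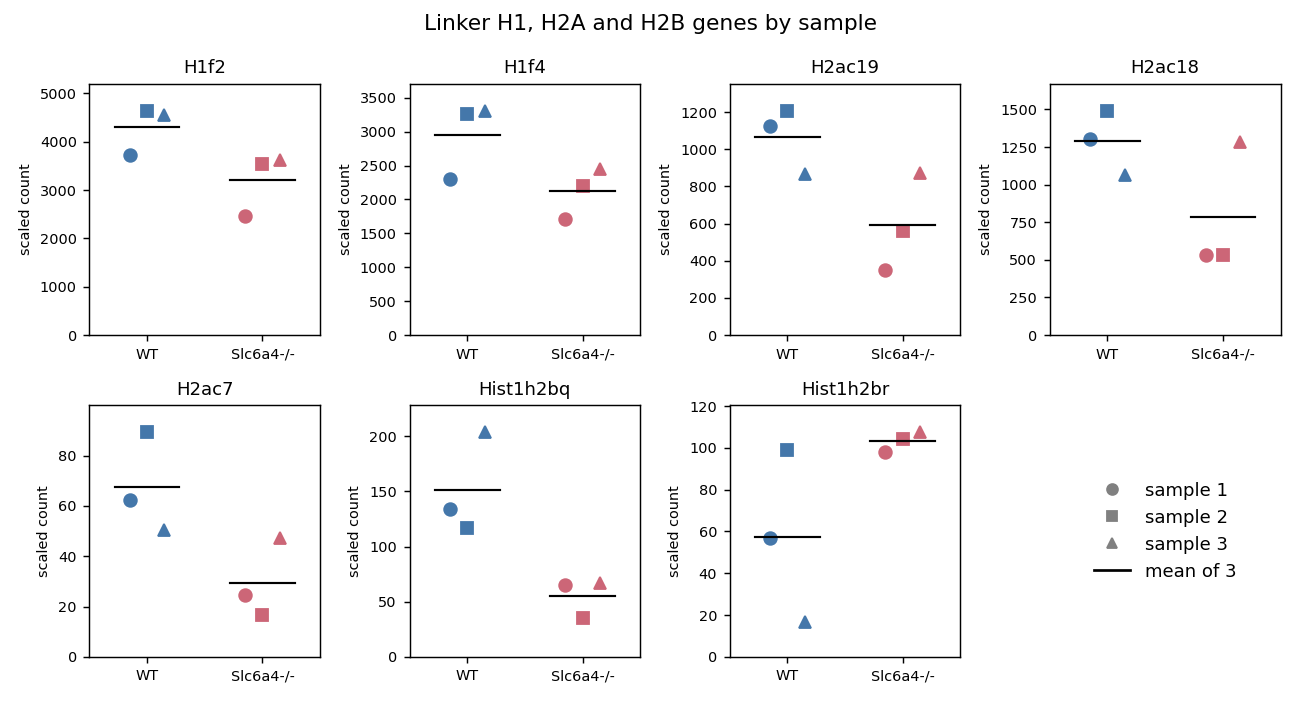
Scaled counts (vertical axes, linear from 0, 1 panel a gene) of the 7 histone genes are plotted for 3 WT (blue) and 3 Slc6a4-/- (red) samples, with marker shape for the sample number and a line at each group's mean. Lower means in Slc6a4-/- are seen in 6 panels and a higher one in that of Hist1h2br, and in the panels of H2ac19 and H2ac18 the triangle of Slc6a4-/- sample 3 reaches the WT values.

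Of the H2B copies, Hist1h2bq had the lowest relative level of the 7 genes in Slc6a4-/- and Hist1h2br was the exception that was higher. Hist1h2bq had 124, 110 and 194 counts in WT and 74, 38 and 65 in Slc6a4-/-, or 134, 117 and 204 scaled counts against 65.2, 35.1 and 66.5. Every Slc6a4-/- sample was below every WT sample, and the difference was -1.44 ± 0.38 (log2, SE), 36.7% of WT from the means.

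Hist1h2br had 53, 93 and 16 counts in WT and 111, 113 and 105 in Slc6a4-/-, or 57.1, 98.8 and 16.8 scaled counts against 97.8, 104 and 107. The Slc6a4-/- samples were close to each other (103 ± 4.94, SD, n = 3) and the WT samples were not (57.6 ± 41.0). The groups overlapped, because WT sample 2 exceeded the lowest Slc6a4-/- sample, and WT sample 3 was far below the rest. The difference was 1.15 ± 0.74 (log2, SE). Without WT sample 3 it was 0.45 ± 0.30, and without WT sample 2 it was 1.70 ± 0.64.

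The counts of the pair, when added, were lower in Slc6a4-/-. Hist1h2bq and Hist1h2br together had 177, 203 and 210 counts in WT and 185, 151 and 170 in Slc6a4-/-, or 191, 216 and 220 scaled counts against 163, 140 and 174. After scaling the summed groups did not overlap, in a table of which 22.8% lay entirely below WT. Before scaling they did, with 185 counts in Slc6a4-/- sample 1 and 177 in WT sample 1. Of the 2015 windows of Hist1h2bq, 259 also occur in Hist1h2bk and 201 in Hist1h2bp, so the sum can still share reads with other genes. The difference of the sum was -0.40 ± 0.11 (log2, SE), or 76.0% of WT from the means, a size near that of the H1 genes. In WT the sum varied by 1.16-fold between the lowest and highest sample, while Hist1h2bq varied by 1.74-fold and Hist1h2br by 5.89-fold. The sample with the most Hist1h2bq (WT sample 3) had the least Hist1h2br.

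The share of the pair's reads on Hist1h2bq differed between libraries, as far as reads could be assigned to a copy. It was 70.1% (exact 95% binomial interval 62.7 to 76.7) in WT sample 1, 54.2% (47.1 to 61.2) in sample 2 and 92.4% (87.9 to 95.6) in sample 3. In Slc6a4-/- it was 40.0% (32.9 to 47.4), 25.2% (18.5 to 32.9) and 38.2% (30.9 to 46.0). These intervals cover counting error only. Mean shares were 72.2% ± 19.2 in WT and 34.5% ± 8.10 in Slc6a4-/- (SD, n = 3), and the groups did not overlap. Both genes came from a table chosen on this contrast and differed in opposite directions, so nothing is read from that separation. The part of this split in the higher mean of Hist1h2br was not tested.

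**Figure D3:**
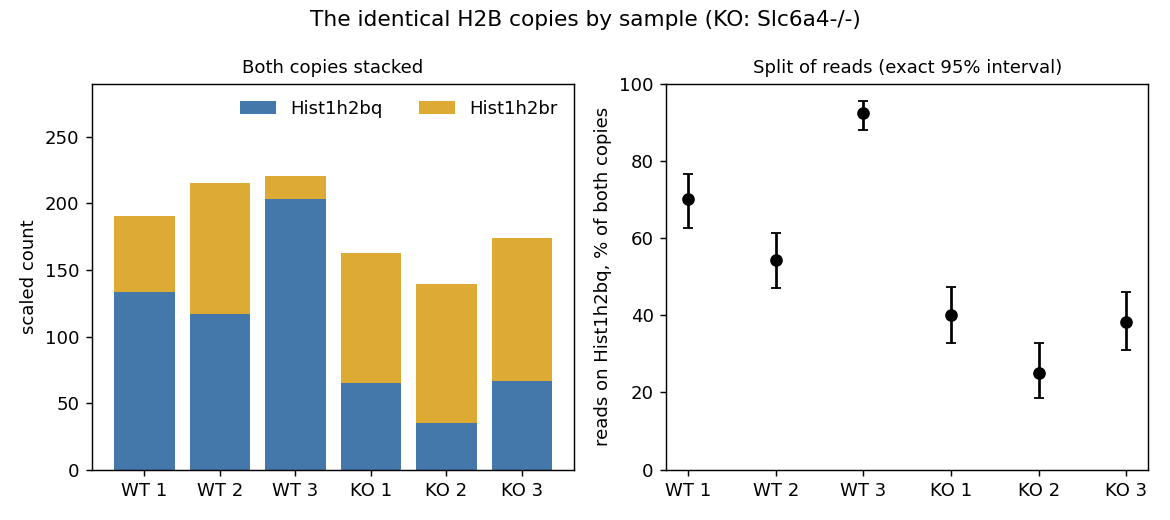
The left panel stacks the scaled counts (vertical axis, from 0) of Hist1h2bq and Hist1h2br in each of the 6 samples, and the right panel gives the percentage of the pair's reads on Hist1h2bq with its exact 95% binomial interval. The stacked totals run from 191 to 220 in WT and from 140 to 174 in Slc6a4-/-, whereas the share on Hist1h2bq runs from 54.2% to 92.4% in WT and from 25.2% to 40.0% in Slc6a4-/-.

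Across the 7 genes after scaling, 3 had every Slc6a4-/- value below every WT value (H1f2, H2ac7 and Hist1h2bq), 0 had every value above, and 4 overlapped. In the table as a whole, of 701 genes, 22.8% were entirely below and 37.4% entirely above, in a table chosen on this contrast, so nothing is read from either share. Lower means were seen in 6 of 7 against 43.4% of the table, 4 of the 7 were lower by more than 1.5-fold against 11.7% of the table, and 1 was higher by more than 1.5-fold against 30.8%. The split of non-overlapping table genes depends on the scaling. It was 160 below and 262 above with the depth used here, 235 and 168 with the median of ratios, and 51 and 325 with no scaling. The median difference of the 7 was -0.84 (log2), and that of the 701 was 0.30.

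Slc6a4-/- sample 3 lay nearest to WT for most histone genes with a lower mean in Slc6a4-/-. It was the highest of the 3 Slc6a4-/- samples for 6 of those 6 among the 7 genes and for 24 of those 26 among the histone genes of the table, against 160 of all 304 table genes that were lower in Slc6a4-/- (52.6%). For Hist1h2br, the gene with a higher mean, sample 3 was the farthest from WT. The 3 H2A genes stood at a median of 36.6%, 41.6% and 81.7% of their WT mean in Slc6a4-/- samples 1, 2 and 3. For the 2 H1 genes these values were 57.4%, 78.2% and 83.7%. Without Slc6a4-/- sample 3, the number of the 7 genes that lay entirely below WT was 6 in place of 3, while the share of the table rose from 22.8% to 32.0%. Without WT sample 3 the number was 5, against 27.2% of the table. Fewer samples make an overlap less likely for any gene, and nothing is read from these shares. The H2ac18 difference moved from -0.84 to -1.26 without Slc6a4-/- sample 3, and that of H2ac19 from -0.92 to -1.24.

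The 20 other histone genes of the table gave the same direction in their means. All 20 were lower in Slc6a4-/-, against 43.4% of the table. The median difference was -0.55 (log2), with a range from -0.28 for H4c14 to -1.29 for H2ac15. By class the median differences were -0.52 for the 6 H3 genes, -0.54 for the 11 H4 genes and -0.96 for the 3 H2A genes outside the set of 7. H2ac15, Hist1h2ap and H2ac6, those 3, had Slc6a4-/- sample 3 within the WT range, as did H2ac19 and H2ac18. In 7 of the 20 every Slc6a4-/- sample was below every WT sample, against 22.8% of the table, and in 19 of the 20 without Slc6a4-/- sample 3, against 32.0% of the table. Many of these genes share sequence with each other, so they are not independent measurements.

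**Figure D4:**
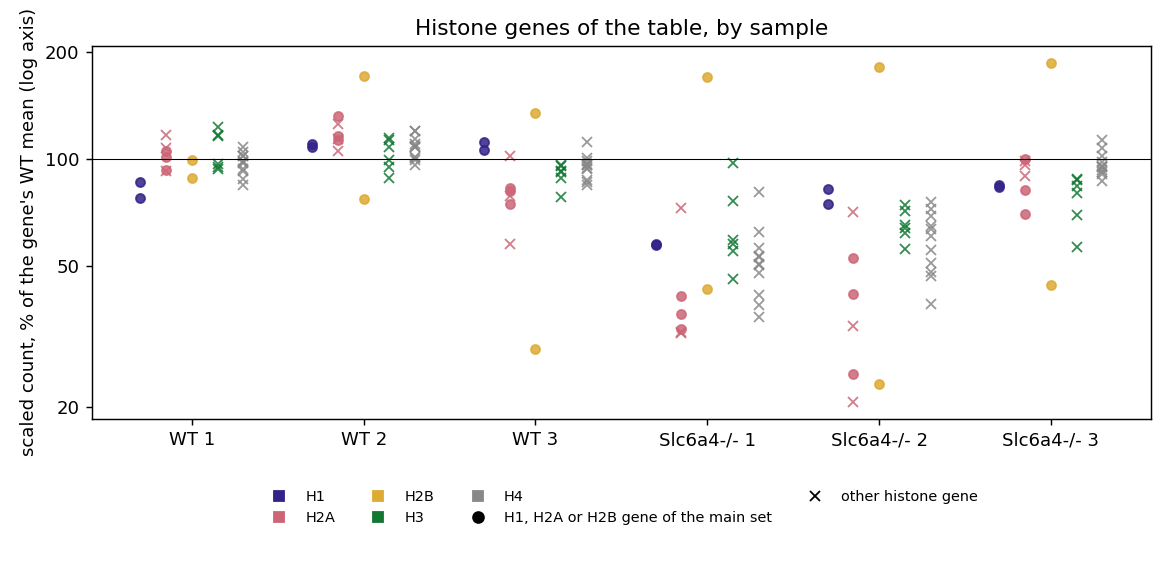
Each point is a histone gene's scaled count in 1 sample as a percentage of that gene's WT mean (vertical axis, log scale), for 27 histone genes coloured by class, with circles for the 7 genes described and crosses for the other 20. The points of H2A and H4 lie low in Slc6a4-/- samples 1 and 2 and mostly near 100% in sample 3, and the high yellow circles in the Slc6a4-/- samples are Hist1h2br.

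The genes most like the 7 within genotypes were other histone genes in part. Ranked by Pearson r between a gene's deviations from its genotype means and the mean deviation of the 7 over 6 samples, the first 5 of 509 table genes with a mean of at least 100 scaled counts were H4c9 (0.96), Ppm1n (0.95), Zbtb7a (0.95), H4c8 (0.95) and H3c6 (0.95). Histone genes made up 9 of the first 20, and at most 20 of the 509 ranked genes were histone genes. These correlations share each library's depth and are a description.

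Genes of the cell cycle, listed because histone genes are transcribed mainly in replicating cells, did not go one way. Of the 28 listed, 10 are in the table, 5 with a lower and 5 with a higher mean in Slc6a4-/-. Top2a, a topoisomerase of dividing cells, was low, with 12, 12 and 12 counts in WT and 8, 3 and 5 in Slc6a4-/-. Cdkn1a, an inhibitor of cyclin-dependent kinases, had 49.6, 77.5 and 48.3 scaled counts in WT against 25.5, 29.6 and 20.5, with no overlap, and a difference of -1.16 ± 0.26 (log2, SE). Bub3, a mitotic checkpoint protein, and Cdkn2c, another kinase inhibitor, were higher in Slc6a4-/- in every sample, by 0.44 ± 0.11 and 0.41 ± 0.13. Among the 10 genes, 4 lay entirely below WT and 4 entirely above, against 22.8% and 37.4% of the table, which was chosen on this contrast. Of 22 listed genes of histone supply (chaperones and processing factors), only Nap1l2, a neuronal histone chaperone, is in the table, with a difference of -0.27 ± 0.11. The other genes of both lists were not analysed here.

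Marker genes of other tissues in the table also differed in their means between the genotypes, as every gene in it was selected to do. Of the 701 table genes 397 had a higher mean in Slc6a4-/-. The lists were chosen with the gene names of the table known, and markers outside it were not analysed here. Of 15 myeloid markers 11 are in the table, all with a higher mean in Slc6a4-/- and with a summed scaled count of 292 to 441 in WT and 515 to 847 in Slc6a4-/-. Of 10 pigment cell markers 7 are in the table, all with a higher mean and with sums of 1084 to 2531 in WT and 2376 to 4101 in Slc6a4-/-. Of 12 fibroblast markers 9 are in the table and 8 were higher, with sums of 4278 to 12568 in WT and 11240 to 13660 in Slc6a4-/-. All 10 markers of orbital and nasal gland are in the table and 9 were lower, with sums of 198 to 420 in WT and 246 to 266 in Slc6a4-/-. No marker in the table was at 0 in all 6 samples, and the part of these tissues in the histone values was not tested.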

How the data were processed

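Retinae of both genotypes were collected 24 hours after ONC, with 3 samples per genotype grouped by their labels. Total RNA libraries with reduced ribosomal RNA, stranded per the labels, were sequenced as 75-base paired reads, and the authors used the CLC Genomics Workbench for alignment (build GRCm38) and for gene counts. These whole-number counts were deposited by the authors without normalization, written with commas, for 701 genes that they had selected in the same comparison. It also holds the authors' mean RPKM of the higher genotype, and their fold changes and p-values, which were not used. No test was run, because the genes were chosen on this contrast. The 7 members and all gene lists were chosen with earlier results of these data known. All per-sample columns were used (0 were left out), and blank lines were skipped.

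Library depth was recovered by solving for the mapped reads that turn counts and GENCODE M21 exon lengths into the authors' RPKM, over 33 genes higher in WT and 24 higher in Slc6a4-/- (median absolute residual 0.0545% and 0.0168%). The procedure was tested on simulated data. The standard error of a depth was 0.10 to 0.35 M reads, so the spread between pools limits the precision. Scaled counts are counts divided by depth over the geometric mean depth, and a pseudocount of 1 was added before log2. The genes named are the 7 members, the other histone genes of the table (lowest and highest), the 5 most similar genes with a mean of at least 100 scaled counts, Slc6a4 and genes of the listed pathways and markers. Other scalings, pseudocounts, a replicate block and leaving out each sample were tried. Sequences came from GENCODE M21 transcripts and RefSeq promoters (GRCm38.p6). Python 3.11.15, numpy 2.4.6, scipy 1.17.1 and matplotlib 3.10.9 were used.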

Additional observations from a re-analysis of the deposited data

How the results depend on the processing

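The direction of each of the 7 genes was the same under 3 other scalings, pseudocounts of 0.5 and 5 and the removal of each sample. So were the 6 lower means among them and the 20 lower means among the other histone genes. The number of the 7 genes whose groups did not overlap ranged from 3 to 6 when single samples were left out, with 5 without WT sample 3 and 6 without Slc6a4-/- sample 3, all below WT, while the share of the 701 genes with no overlap in either direction went from 60.2% to between 63.3% and 83.6%. Hist1h2br lay entirely above WT with no scaling, without WT sample 2 or without Slc6a4-/- sample 1. With no scaling H1f2 overlapped, and only H2ac7 and Hist1h2bq lay entirely below WT, against 7.28% of the table. The H1f2 difference was -0.26 (log2) with no scaling and -0.60 with the median of ratios. The difference of the summed H2B pair was -0.40 (log2) as reported, -0.55 with median-of-ratios scaling and -0.22 with no library scaling, and between -0.46 and -0.31 when single samples were left out. These scalings shifted the median difference of all 701 genes by -0.16 and 0.18, and the shift of the pair was of that size. The sum of H2ac18 and H2ac19 and the count of other histone genes with no overlap were added after the data were seen. That count was 7 as reported (22.8% of the table was entirely below), 12 with the median of ratios (33.5%), 13 without WT sample 3 (27.2%) and 19 without Slc6a4-/- sample 3 (32.0%). A replicate block cannot change a difference between groups of equal size, and that of the H2B pair stayed -0.40. Its standard error was 0.12 in place of 0.11. Neither the block nor the pseudocount can change an overlap, so the counts of calls could not move. Deviations of samples with the same number correlated at 0.25, -0.19 and 0.06 over 682 genes, which cannot settle whether the numbers pair the samples. With the block the SE fell for H1f2 (0.21 to 0.08), H1f4 (0.23 to 0.05) and Hist1h2bq (0.38 to 0.21). It rose for H2ac19 (0.40 to 0.49), H2ac18 (0.45 to 0.56), H2ac7 (0.48 to 0.65) and Hist1h2br (0.74 to 0.75). With the genotype means kept, 8 of the 20 genes most like the 7 were histone genes, of at most 20 histone genes among the 509 ranked. With genes under a mean of 10 scaled counts left out, 409 table genes had no overlap in place of 422. Depth limits H2ac7, Hist1h2bq and Hist1h2br, with 16 to 194 counts a library.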
